A study of Mus musculus with 24 samples.

Results

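The genes described here are the 10 mouse Toll-like receptor genes Tlr1 to Tlr9 and Tlr13, chosen by their gene symbols out of 54532 genes in the deposited expression table. All 10 symbols matched 1 entry each. Their mRNA was followed in 24 polyA RNA-seq libraries of cultured mouse marrow cells: macrophages (BMDMs, raised in L929-conditioned medium) and dendritic cells (BMDCs, raised in GM-CSF plus IL-4). The cells came from Tmem173fl/fl mice, labelled WT, or from Tmem173fl/fl mice that also carry a Lyz2-driven, tamoxifen-inducible Cre, labelled CRE, and mice of both labels received tamoxifen. Cells were left as control (CT) or given DMXAA (DX), an agonist of mouse STING, the protein that Tmem173 encodes, so that the 8 groups are the combinations of cell type, label and treatment with 3 libraries each. The dose of DMXAA was 40 µM per the series text, while the methods of the study state its doses in another unit. Lyz2 drives Cre in myeloid cells, tamoxifen-induced deletion need not be complete, and WT cells are floxed cells without Cre. Nothing in the labels says whether libraries of a group came from separate mice, so p-values measure the spread between these libraries, which may be technical.

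Toll-like receptors are membrane receptors that recognise conserved microbial molecules and, in some cases, host nucleic acids. TLR1, TLR2, TLR4, TLR5 and TLR6 mostly sit at the cell surface and sense lipopeptides, lipopolysaccharide and flagellin, whereas TLR3, TLR7, TLR8, TLR9 and TLR13 sense RNA or DNA inside endosomes. Most of them signal through the adaptor MyD88, TLR3 signals through TRIF, and both routes lead to NF-κB and to interferon regulatory factors, the same factors that STING reaches by way of the kinase TBK1.

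The genes lie on 7 chromosomes in the files' GRCm38 coordinates, which matched the GENCODE annotation of that build for each of the 10. Tlr1 (chromosome 5, 64924679 to 64933563, minus strand) and Tlr6 (chromosome 5, 64952031 to 64960097, minus strand) are neighbours, as are Tlr7 (chromosome X, 167304929 to 167330558, minus strand) and Tlr8 (chromosome X, 167242696 to 167264329, minus strand). Tlr13 is on chromosome X (106143204 to 106160493, plus strand), Tlr2 on 3 (83836272 to 83841767, minus strand), Tlr3 on 8 (45395665 to 45411080, minus strand) and Tlr4 on 4 (66827584 to 66930284, plus strand). Tlr5 is on chromosome 1 (182954788 to 182976044, plus strand) and Tlr9 on 9 (106222598 to 106226883, plus strand). The coding sequence of Tlr1, Tlr2 and Tlr6 lies within 1 exon, while that of Tlr4 spreads over 3 and that of Tlr3 over 4. Tlr1 and Tlr6 share sequence: 259 of 2926 windows of 100 bases in the Tlr1 transcript (8.85%) and 7.24% of those in the Tlr6 transcript occur exactly in the other, so reads from these windows cannot be assigned to 1 of the genes, and values of Tlr1 and Tlr6 carry that uncertainty. No other pair of members shared a window of 50 bases or more. Tlr3 overlaps an annotated antisense gene, Gm45542, which had 0 counts in each of the 24 libraries, and whether counting used strand is not stated.

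Promoter sequence from RefSeq (GRCm38.p6) was at hand for 8 of the 10 genes, and Tlr4 and Tlr7 had no entry. The 250 bases before each start were searched on both strands for 4 short motifs: GAAA then any 2 bases then GAAA, of the kind bound by interferon regulatory factors; GGGAA then any 3 bases then CC, of the kind bound by NF-κB; GAGGAAGT, of the kind bound by the myeloid factor PU.1; and TGACTCA, of the kind bound by AP-1. No 2 different motifs overlapped in a member. Shown are Tlr2, Tlr6 and Tlr9, the genes among those with a called rise in WT BMDMs that held a match, 5′ to 3′ on the gene's own strand with the matched bases in capitals, and bases annotated as exon in GENCODE are left out.
Tlr2, chr3:83841768-83841858: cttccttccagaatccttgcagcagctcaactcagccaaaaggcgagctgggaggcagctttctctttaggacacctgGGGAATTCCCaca
Tlr6, chr5:64959167-64959416: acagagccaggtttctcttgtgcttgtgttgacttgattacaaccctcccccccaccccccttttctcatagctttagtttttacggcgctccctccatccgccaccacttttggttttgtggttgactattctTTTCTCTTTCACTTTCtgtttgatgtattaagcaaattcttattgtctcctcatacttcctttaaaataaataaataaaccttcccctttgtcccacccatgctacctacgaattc
Tlr9, chr9:106222348-106222597: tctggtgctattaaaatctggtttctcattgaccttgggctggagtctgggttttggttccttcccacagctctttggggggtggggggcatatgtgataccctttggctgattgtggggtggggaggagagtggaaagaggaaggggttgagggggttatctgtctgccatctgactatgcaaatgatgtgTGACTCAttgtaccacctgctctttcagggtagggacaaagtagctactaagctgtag
The Tlr2 match, GGGAATTCCC, begins 172 bases before the start listed for its promoter and fits the NF-κB motif on both strands. That motif is present in 4.94% of 32851 promoters of the same length. The listed start lies within the annotated span of Tlr2, and the 91 bases shown are those of the window outside exons. In Tlr6, 2 overlapping matches to the interferon regulatory factor motif (2.98% of promoters) lie on the opposite strand of 1 of its 2 listed promoters. They begin 116 and 110 bases before the start listed for that promoter, whose window lies within the annotated span of Tlr6. Tlr9 has the AP-1 motif (4.46% of promoters) 58 bases before its start. Tlr1 has the PU.1 motif (2.44% of promoters) and Tlr5 an NF-κB motif on the opposite strand. None of the 4 motifs was found in the Tlr3, Tlr8 or Tlr13 windows, which says only that these letters are not there. The Tlr3 window (chromosome 8, 45410381 to 45410630) lies inside the annotated span of the gene, with 72 of its 250 bases outside exons. Bases before the annotated start of Tlr3 were therefore not searched. A match is a description of letters, not a shown binding site.

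Total counts were 15657347 to 18912887 per library. The 4 BMDM libraries numbered 3 stood apart: their fibroblast marker sum was 12657 to 19149 CPM (counts scaled to a common library total), against 28.8 to 458 in the other 8 BMDM libraries, Lyz2 was at most 5.62 FPKM against at least 2667, and of 4 leukocyte markers 1 to 4 were at or below 3 counts. They are therefore given apart, and BMDM groups have n = 2. In the 8 BMDM libraries used, 8 of 8 macrophage markers were detected, and in the 12 BMDC libraries 8 of 8 dendritic cell markers were. The BMDC libraries also held macrophage markers, with at most 1 of 8 at or below 3 counts. WT BMDM libraries numbered 2 had a fibroblast marker sum of 422 to 458 CPM against 28.8 to 63.1 in the other 6, and CRE BMDC libraries numbered 2 had a neutrophil marker sum of 162 to 349 CPM against 7.13 to 23.1 in the other 10, and a macrophage marker sum of 2043 to 2164 CPM against 5958 to 8947. Their part in the results was not tested, and the results are given without them where that changes them. Tmem173 was 27.3 ± 6.4 FPKM (SD, n = 2) in WT and 9.63 ± 0.72 (SD, n = 2) in CRE BMDMs under DMXAA (log2 fold change -1.45, SE 0.24, edgeR adjusted p = 0.00921), but 12.3 ± 3.37 and 9.60 ± 1.19 in the controls (adjusted p = 0.772). In BMDCs it was 38.5 ± 11.8 (SD, n = 3) in WT and 28.3 ± 8.59 in CRE controls (-0.43, adjusted p = 1), and CRE against WT under DMXAA was also -0.43 (95% interval -1.05 to 0.19, adjusted p = 1), so the BMDC libraries labelled CRE and WT could not be told apart by Tmem173. Across labels, CRE library 1 and WT library 3 of the BMDCs differed by an SD of 0.34 (control) and 0.32 (DMXAA) on the log2 scale over genes, and CRE 3 and WT 2 by 0.34 in both, which was less than any other pair of BMDC libraries of the same treatment.

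Levels are compared between genes as FPKM, which is scaled to gene length, and Tlr13 was the most abundant receptor mRNA in control BMDMs. Tlr13, the receptor for bacterial ribosomal RNA, measured 152 and 86.0 FPKM in the WT libraries and 158 and 154 in the CRE libraries, 55.1% and 64.2% of the summed mean FPKM of the family. Tlr2, the partner of TLR1 and TLR6 in lipopeptide sensing, was second in WT at 26.6 and 51.1 FPKM and lower in the order in CRE at 17.3 and 17.2. Tlr7 and Tlr8, receptors for single-stranded RNA and its breakdown products, measured 31.3 and 20.3 FPKM and 19.9 and 5.10 FPKM in WT, and 28.1 and 26.3 and 20.9 and 18.5 in CRE. In the WT controls Tlr2 overlapped Tlr7 in range, and Tlr8, Tlr4, Tlr1 and Tlr6 overlapped each with the next, so their order is not resolved. Tlr3, the receptor for double-stranded RNA, and Tlr9, the receptor for unmethylated CpG DNA, were low, with means of 2.15 and 1.21 FPKM in WT. The flagellin receptor gene Tlr5 was at most 0.129 FPKM and at most 8 counts in any library and was not tested.

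BMDCs had another order, led by Tlr2, Tlr4 and Tlr13. In WT controls Tlr2 measured 19.4, 35.0 and 32.9 FPKM, Tlr4, the lipopolysaccharide receptor gene, 19.2, 21.7 and 16.8, and Tlr13 16.8, 17.8 and 14.7, so Tlr2 overlapped Tlr4 and Tlr4 overlapped Tlr13, while Tlr13 lay above the genes after it. They made up 35.4%, 23.4% and 19.9% of the family sum. Tlr7 (mean 6.57 FPKM) and Tlr8 (6.03) overlapped, Tlr6 (2.39) and Tlr9 (1.63) lay below, and Tlr1 (0.599) and Tlr3 (0.339) were under 1 FPKM. CRE controls had the same 3 genes on top, with Tlr2 at 26.2 ± 14.9 FPKM (SD, n = 3), Tlr13 at 16.6 ± 3.94 and Tlr4 at 15.8 ± 4.80, and CRE library 2 held the lowest value of each.

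**Figure D1:**
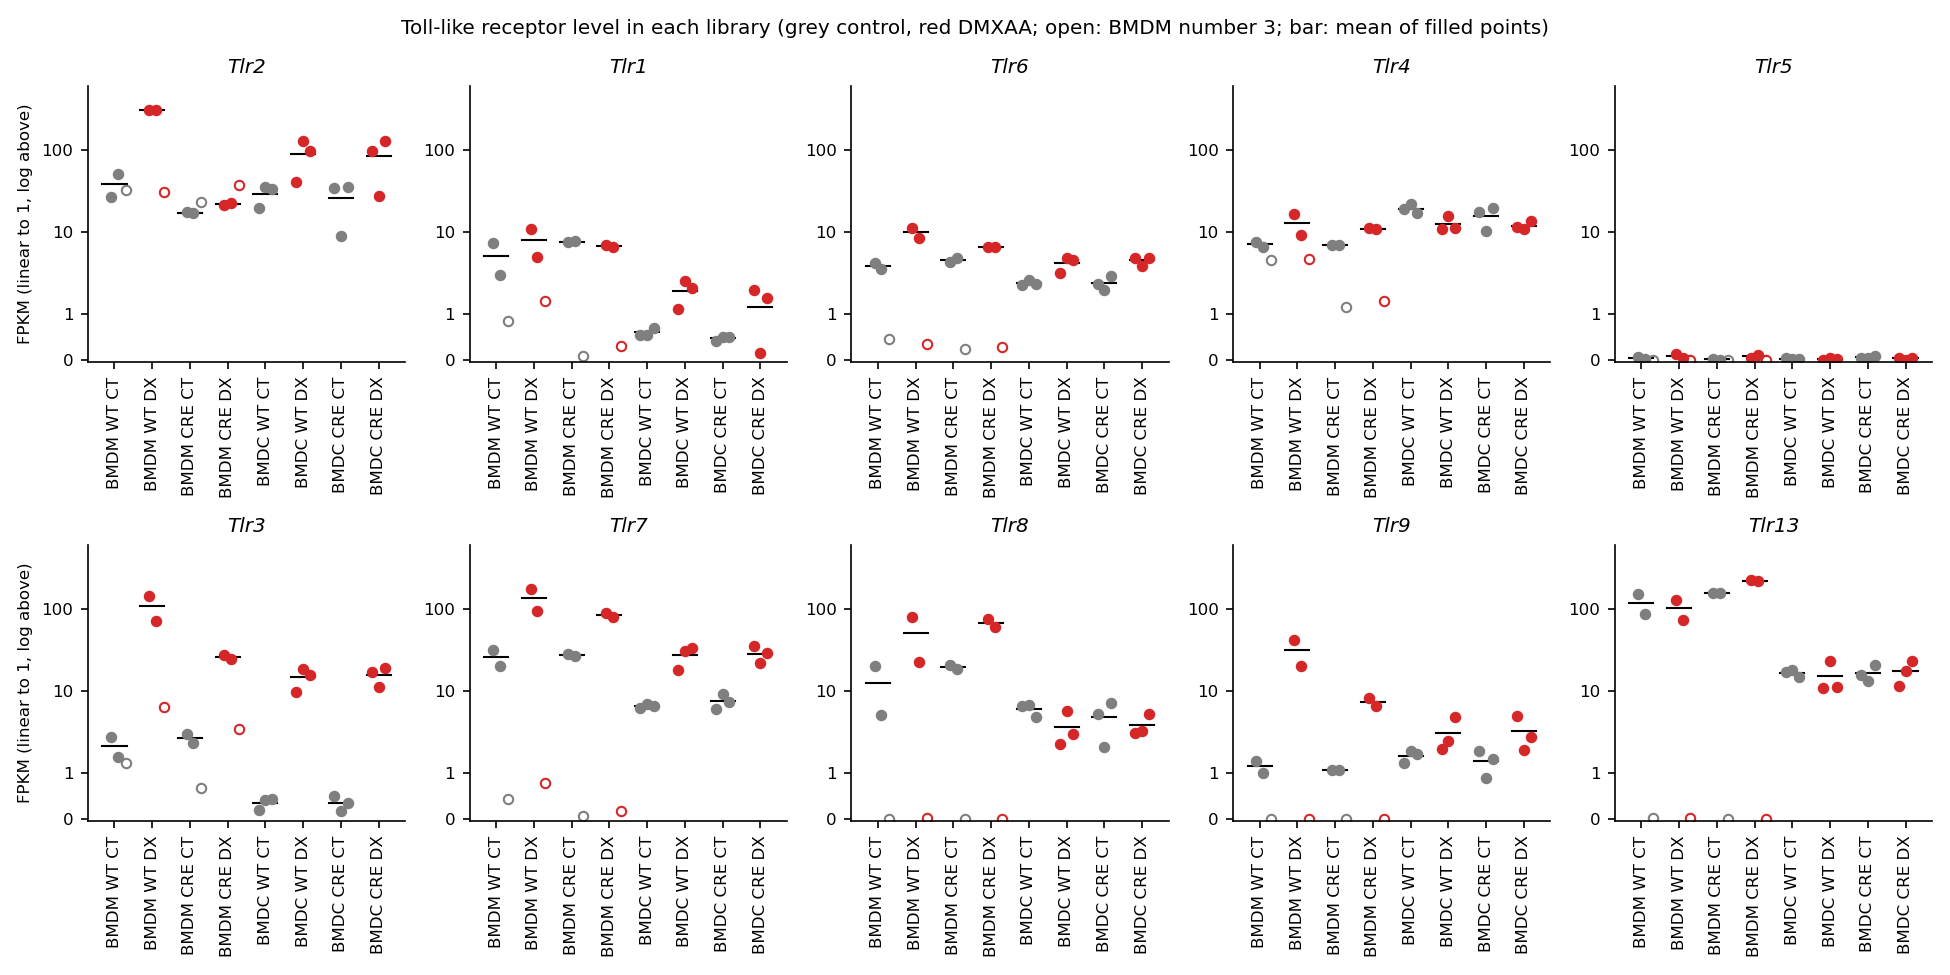
FPKM of the 10 Toll-like receptors in each library, by group; the vertical axis is linear up to 1 and logarithmic above. Filled points are the 20 libraries used, bars their group means, and open points the BMDM libraries numbered 3; Tlr3 rises from a mean of 2.15 to 108 FPKM in WT BMDMs, and Tlr5 stays at or below 0.129.

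The direct comparison of control WT cells found 6 of 9 receptors tested at different levels in BMDCs and BMDMs, beside 28.5% of 13368 genes, 13.1% higher and 15.4% lower in BMDCs. The controls are the same libraries as in the comparisons with DMXAA. Tlr4 was higher in BMDCs (log2 fold change 1.38, SE 0.28, edgeR adjusted p = 0.00153). Tlr1 (-3.16, SE 0.64, adjusted p = 0.00152), Tlr13 (-2.91, SE 0.37, adjusted p = 2.91e-05), Tlr3 (-2.71, SE 0.45, adjusted p = 0.000287), Tlr7 (-2.03, SE 0.30, adjusted p = 9.68e-05) and Tlr6 (-0.75, SE 0.22, adjusted p = 0.0153) were lower in BMDCs. For each of these 6 the ranges of BMDCs and BMDMs did not overlap, beside 53.3% of all genes tested. Tlr1 and Tlr3 were under 1 FPKM in each control BMDC library. They met the filter for testing only through BMDM libraries and BMDC libraries with DMXAA, so their place among the receptors tested depends on their higher levels there. Tlr2 (-0.47, 95% interval -1.76 to 0.81), Tlr8 (-1.11, -2.36 to 0.14) and Tlr9 (0.37, -0.59 to 1.33) did not pass the test. Tlr6 was not called without BMDM library 1 (adjusted p = 0.125) or BMDC library 1 (0.0514), and the others were called in 5 of 5 fits that left out 1 library. Without the WT BMDM libraries numbered 2, 7 receptors were called beside 22.1% of genes, with Tlr8 (-1.72, adjusted p = 0.0277) as the addition. With BMDM libraries numbered 3 included, 0 receptors were called, beside 9.37% of genes. As these are whole cultures, fewer cells of a type and less RNA per cell cannot be told apart.

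**Figure D2:**
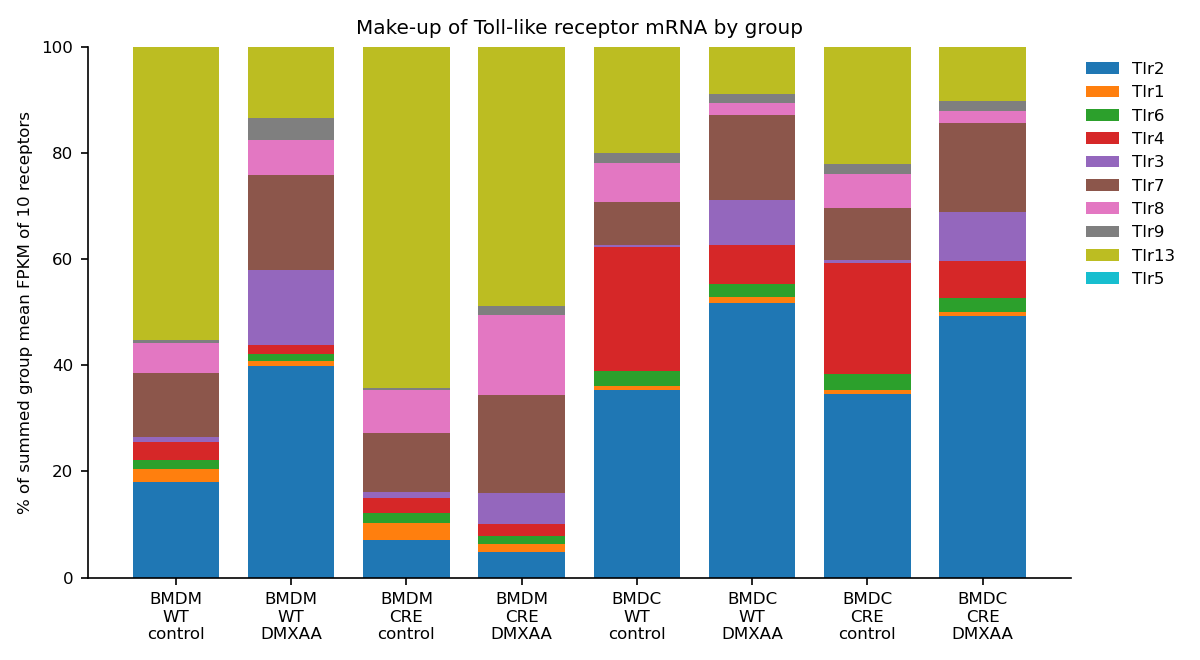
Share of each receptor in the summed group mean FPKM of the 10 Toll-like receptors, in percent, for the 8 groups (BMDM numbers 1 and 2, BMDC numbers 1 to 3). Tlr13 makes up 55.1% in WT control BMDMs and 13.4% after DMXAA, where Tlr2 makes up 39.9%.

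In WT BMDMs, DMXAA was followed by higher mRNA of 6 of the 9 receptors tested, and 0 fell, while 39.2% of 11569 genes were called, 18.4% as higher and 20.7% as lower. DESeq2 called 7 receptors at an adjusted p (41.0% of genes) and 6 at the study's thresholds, a p of at most 0.05, taken here as unadjusted, with a log2 fold change of at least 1 in size (25.9%). The median log2 fold change was 1.92 over the 9 receptors and -0.08 over all genes. Tlr3 went from 2.72 and 1.58 FPKM in the controls to 145 and 70.9 under DMXAA, a 50.1-fold higher mean. Both treated libraries were far above both controls, and library 1 was above library 2 (log2 fold change 5.54, SE 0.44, edgeR adjusted p = 0.000218). Tlr9 went from 1.41 and 1.01 FPKM to 42.2 and 20.1, a 25.8-fold higher mean (4.57, SE 0.39, adjusted p = 0.00029). Tlr2 went from 26.6 and 51.1 FPKM to 305 and 302, the highest level of any receptor in any group (2.85, SE 0.30, adjusted p = 0.000672). Its treated libraries were nearly equal, unlike those of the other receptors, where library 1 was higher than library 2.

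Tlr7 also rose in WT BMDMs, from 31.3 and 20.3 to 176 and 94.4 FPKM (log2 fold change 2.28, SE 0.32, edgeR adjusted p = 0.00213). Tlr6, which partners TLR2, rose from 4.20 and 3.54 to 11.3 and 8.54 FPKM (1.25, SE 0.18, adjusted p = 0.00217). Tlr4 went from 7.56 and 6.61 to 16.4 and 9.29 FPKM (0.74, SE 0.24, adjusted p = 0.0495), just inside the threshold. It was not called with the total count filter (adjusted p = 0.0559), in a fit of the compared groups alone (0.155, beside 14.6% of genes called), or without control library 1 (adjusted p = 0.0876), control library 2 (0.134) or DMXAA library 1 (0.135). Tlr8 measured 19.9 and 5.10 FPKM before and 80.0 and 22.5 after DMXAA (1.92, SE 0.73, adjusted p = 0.0789), and libraries 1 were well above libraries 2 in both groups. Tlr1 (0.51, 95% interval -0.61 to 1.63) and Tlr13 (-0.34, -1.09 to 0.42) did not pass, and their groups overlapped. Groups did not overlap in FPKM for 7 of the 10 receptors, Tlr4 among them, beside 62.5% of all genes tested. With the replicate number as a block, 9 receptors were called beside 52.8% of genes, and without both WT libraries numbered 2 it was 9 beside 63.0%, with 8 higher and Tlr13 lower (-0.34). The summed FPKM of the family was 253 and 178 in the controls and 915 and 606 under DMXAA. These sums depend on how FPKM scales the libraries, which differs from CPM. Tlr2, for example, went from 26.6 and 51.1 to 305 and 302 in FPKM, and from 89.9 and 172 to 630 and 702 in CPM.

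CRE BMDMs also had higher Tlr3, Tlr9 and Tlr7 mRNA under DMXAA, while Tlr2 did not pass the test. These 3 were the receptors called, all higher, beside 10% of genes called, 7.28% higher and 2.72% lower. Tlr3 went from 2.96 and 2.34 to 27.6 and 24.2 FPKM, a 9.77-fold higher mean (log2 fold change 3.27, SE 0.40, edgeR adjusted p = 0.00407). Tlr9 went from 1.09 and 1.10 to 8.24 and 6.48 FPKM (2.72, SE 0.37, adjusted p = 0.0067). Tlr7 went from 28.1 and 26.3 to 88.0 and 79.7 FPKM (1.60, SE 0.31, adjusted p = 0.0248). Tlr2 measured 17.3 and 17.2 FPKM in the controls and 21.2 and 22.4 under DMXAA (0.31, 95% interval -0.37 to 0.99, adjusted p = 0.525). Tlr8 measured 20.9 and 18.5 FPKM in the controls and 75.3 and 60.7 under DMXAA without passing the test (1.76, SE 0.73, adjusted p = 0.18).

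The remaining receptors in CRE BMDMs, Tlr6 (log2 fold change 0.47), Tlr4 (0.63), Tlr13 (0.47) and Tlr1 (-0.20), did not pass either. The 2 libraries of each CRE group were close to each other, and control and DMXAA ranges of FPKM did not overlap for 10 of 10 receptors. The share was 76.7% of all genes tested. The 10 include Tlr1, which was lower under DMXAA, and Tlr5, which was not tested. Tlr5 had 1 and 0 counts in these controls and 3 and 8 under DMXAA. The spread in the fit was shared with the WT libraries. Without both WT libraries numbered 2, where fibroblast markers were higher, 8 of 9 receptors were called higher in CRE BMDMs, Tlr2 among them (0.31), beside 55.0% of genes; in that fit a lone WT library per treatment is assumed to vary like the CRE libraries. A fit of the compared groups alone called 8 beside 55.2% of genes, the replicate block 7 beside 25.2%, and DESeq2 3 (16.8%) at an adjusted p and 4 (9.60%) at the study's thresholds. Tlr3 was not called without CRE control library 1 (adjusted p = 0.0517) or 2 (0.0682), nor Tlr9 without either of them (0.0856 and 0.0876) or without CRE DMXAA library 1 (0.0565). Tlr7 was not called in any of the 4 fits without 1 CRE library (adjusted p between 0.126 and 0.202). Over these fits the log2 fold changes were at least 3.10 for Tlr3, 2.53 for Tlr9 and 1.52 for Tlr7.

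**Figure D3:**
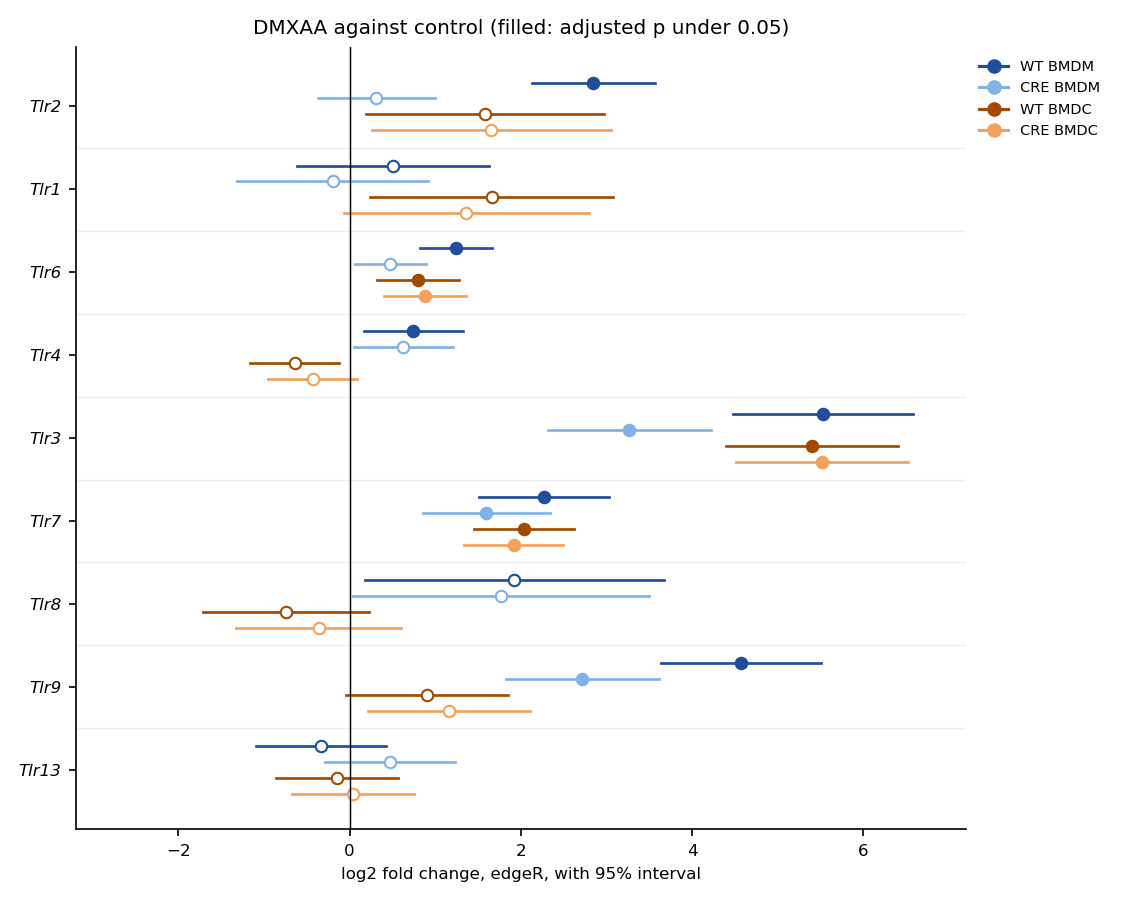
Log2 fold change of DMXAA against control for 9 receptors (edgeR, lines are 95% intervals) in the 4 combinations of cell type and label; filled points have an adjusted p under 0.05. Tlr3 is highest in each combination, between 3.27 and 5.54, and Tlr2 is 2.85 in WT and 0.31 in CRE BMDMs.

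The libraries labelled CRE had lower Tlr2, Tlr3 and Tlr9 mRNA than WT in BMDMs under DMXAA, and higher Tlr13. This made 4 receptors called of 9, beside 19.2% of genes, 9.99% lower and 9.26% higher. Tlr2 was 305 and 302 FPKM in WT and 21.2 and 22.4 in CRE, a mean 0.0718 times that of WT (log2 fold change -3.75, SE 0.31, edgeR adjusted p = 0.00128). Tlr3 was 145 and 70.9 FPKM in WT and 27.6 and 24.2 in CRE (-2.0, SE 0.37, adjusted p = 0.0141). Tlr9 was 42.2 and 20.1 FPKM in WT and 8.24 and 6.48 in CRE (-2.03, SE 0.35, adjusted p = 0.0105). Tlr13 was 129.5 and 73.7 FPKM in WT and 224 and 216 in CRE (1.17, SE 0.32, adjusted p = 0.0479), a call lost with the total count filter (adjusted p = 0.0559) and with median-of-ratios scaling (adjusted p = 0.0601). Groups did not overlap for any of these 4 genes, nor for 62.8% of all genes.

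Tlr7 under DMXAA was 176 and 94.4 FPKM in WT and 88.0 and 79.7 in CRE BMDMs (log2 fold change -0.64, 95% interval -1.36 to 0.09, edgeR adjusted p = 0.197). Tlr6 was 11.3 and 8.54 FPKM in WT and 6.49 and 6.55 in CRE (-0.55, SE 0.17, adjusted p = 0.0699). Tlr4 (-0.18), Tlr8 (0.46) and Tlr1 (-0.18) had adjusted p-values between 0.649 and 0.815. DESeq2 called 5 receptors at an adjusted p (25.1% of genes) and 4 at the study's thresholds (15.5%), the replicate block 4 (21.4%) and a fit of the compared groups alone 4 (15.6%). The Tlr2 call held in 4 of 4 fits that left out 1 library. Without CRE library 1 or 2, Tlr3 (adjusted p = 0.104 and 0.12), Tlr9 (0.0777 and 0.102) and Tlr13 (0.206 and 0.18) were not called, nor was Tlr13 without WT library 2 (0.127). Without both WT libraries numbered 2, 8 receptors were called beside 53.1% of genes, 1 higher and 7 lower, with Tlr13 at 0.83.

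Control BMDMs of both labels had 0 receptors called by edgeR, with 5 of 11569 genes called (0.0432%). At an unadjusted p under 0.05 there was 1 receptor, Tlr2, which DESeq2 called (adjusted p = 0.00730, beside 1.09% of genes, or 3.07% at the study's thresholds). The replicate block called 0 receptors (0.0346% of genes), and leaving out both WT libraries numbered 2 gave 2, Tlr2 (-0.65) and Tlr7 (-0.23), beside 21.8%. Tlr2 was already lower in CRE controls, at 17.3 and 17.2 FPKM against 26.6 and 51.1 in WT (log2 fold change -1.22, 95% interval -1.90 to -0.53, edgeR unadjusted p = 0.00424, adjusted p = 0.486). The test of whether DMXAA moved a receptor differently in CRE and WT BMDMs, the interaction, called Tlr2 alone (-2.53, SE 0.41, adjusted p = 0.0298), beside 3.66% of genes, 2.28% lower and 1.38% higher. DESeq2 called 3 receptors, beside 10.7% of genes at an adjusted p and 10.3% at the study's thresholds, and the replicate block 7, beside 14.7%. Tlr3 (-2.27, SE 0.53, adjusted p = 0.073) and Tlr9 (-1.85, SE 0.51, adjusted p = 0.106) had interaction values of like size without passing. The Tlr2 interaction was between -3.13 and -2.15 in the 8 fits that left out 1 library and was called in 3 of them, not without any of the 4 CRE libraries (adjusted p between 0.159 and 0.186) or WT DMXAA library 1 (0.0674). Without both WT libraries numbered 2 it was -3.10, and 8 receptors had a called interaction, beside 46.1% of genes.

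**Figure D4:**
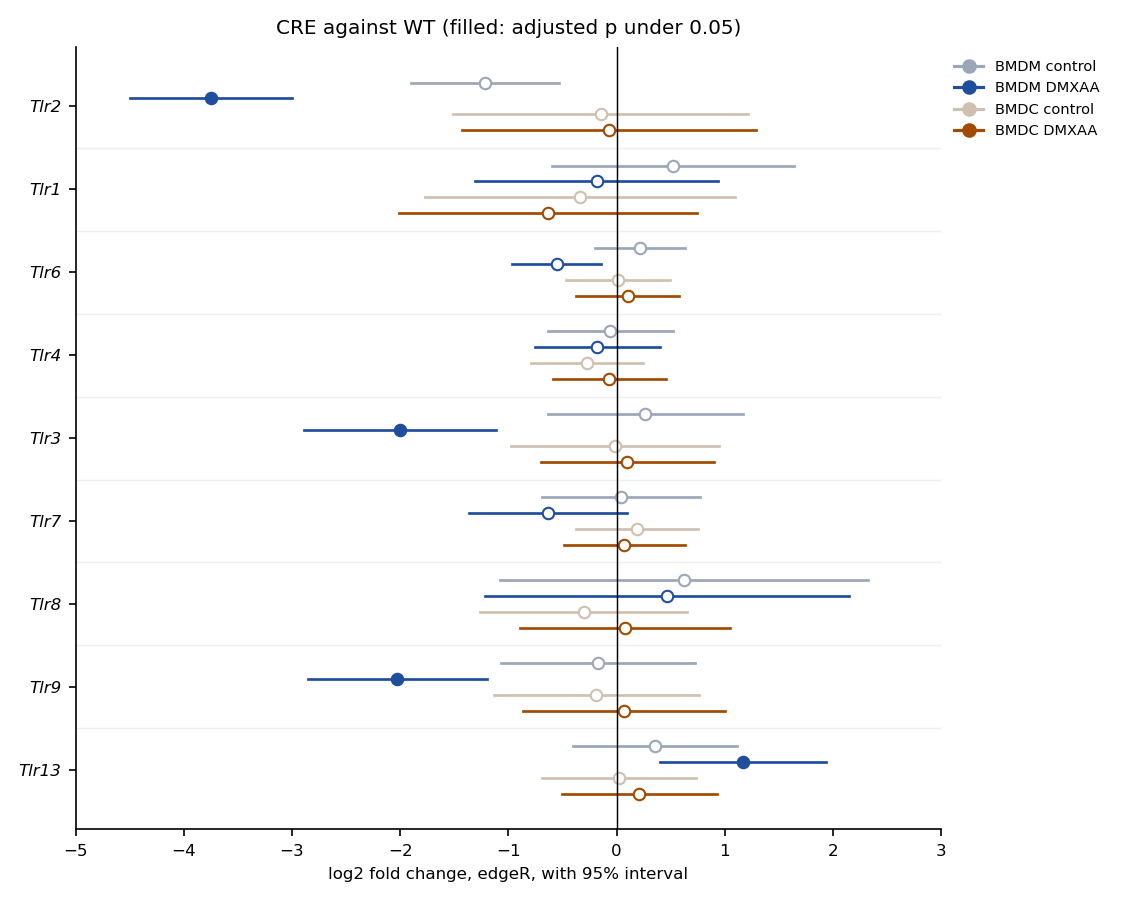
Log2 fold change of CRE against WT for 9 receptors (edgeR, lines are 95% intervals), in control and DMXAA-treated BMDMs and BMDCs; filled points have an adjusted p under 0.05. Tlr2 is -3.75 in BMDMs under DMXAA and -0.07 in BMDCs under DMXAA.

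In BMDCs, DMXAA was followed by higher Tlr3, Tlr7 and Tlr6 mRNA under both labels in the main fit, which did not pair libraries by number. In WT BMDCs 3 of 9 receptors were called, all higher, beside 32.2% of 12126 genes (17.0% higher, 15.2% lower), and in CRE BMDCs 3 of 9, beside 25.4% (14% higher, 11.4% lower). DESeq2 called 6 in WT (36.7% of genes) and 5 in CRE (30.7%) at an adjusted p, and 4 (21.6%) and 5 (18%) at the study's thresholds. A fit of the compared groups alone called 6 in WT (36.1%) and 3 in CRE (15.3%). Tlr3 went from 0.186, 0.411 and 0.420 FPKM to 9.71, 18.8 and 15.6 in WT, a 43.3-fold higher mean (log2 fold change 5.40, SE 0.46, edgeR adjusted p = 8.86e-06). In CRE it went from 0.489, 0.173 and 0.339 to 16.8, 11.2 and 18.96 FPKM, a 47.0-fold higher mean (5.52, SE 0.46, adjusted p = 8.19e-06). Each of the 6 treated libraries was above each control. Tlr3 had 17 to 52 counts in the BMDC controls, all under 1 FPKM. It met the filter for testing (FPKM 1 in 3 or more BMDC libraries) only through its libraries with DMXAA, so its place among the receptors tested depends on its rise. Tlr7 went from 6.18, 6.95 and 6.59 to 17.9, 30.8 and 33.2 FPKM in WT (2.04, SE 0.27, adjusted p = 0.000194) and from 6.04, 9.08 and 7.25 to 34.9, 21.8 and 29.1 in CRE (1.92, SE 0.26, adjusted p = 0.00036). Tlr6 went from 2.23, 2.60 and 2.34 to 3.18, 4.86 and 4.57 FPKM in WT (0.80, SE 0.22, adjusted p = 0.0162) and had a log2 fold change of 0.88 in CRE (SE 0.22, adjusted p = 0.0118). In WT, Tlr6 was not called without control library 1 or 3 or DMXAA library 2 or 3 (adjusted p between 0.0522 and 0.062).

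Tlr2 mRNA in BMDCs was higher in the treated libraries but varied widely between them. It measured 40.4, 127 and 97.8 FPKM in WT under DMXAA and 96.7, 27.3 and 127 in CRE, against controls of 34.0, 8.93 and 35.5 in CRE (log2 fold change 1.58, SE 0.63, edgeR adjusted p = 0.0794 in WT; 1.66, SE 0.64, adjusted p = 0.0792 in CRE). WT library 1 and CRE library 2 were the low ones in both treatments. Control and DMXAA libraries with the same number and label deviated together from their group means (correlations over genes of 0.39 to 0.68), and with the number as a block Tlr2 was called under both labels (1.47, adjusted p = 6.12e-05 in WT; 1.63, adjusted p = 4.21e-05 in CRE). That blocked fit called 8 receptors in WT BMDCs, 6 higher and 2 lower, beside 48.7% of genes, and 5 in CRE BMDCs, all higher, beside 42.7%. Tlr4 measured 19.2, 21.7 and 16.8 FPKM in the WT controls and 10.8, 15.6 and 11.2 under DMXAA, each treated library below each control (-0.64, SE 0.24, adjusted p = 0.0604; 0.00421 with the block). Tlr8 was -0.74 in WT (adjusted p = 0.234; 0.0378 with the block), and was the other receptor lower in that blocked fit.

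Tlr9 mRNA in WT BMDCs was 1.33, 1.85 and 1.70 FPKM in the controls and 1.99, 2.45 and 4.80 under DMXAA (log2 fold change 0.90, SE 0.43, edgeR adjusted p = 0.137; 0.0164 with the block). In CRE BMDCs its log2 fold change was 1.16 (adjusted p = 0.072; 0.00406 with the block). Tlr1 was 0.548, 0.548 and 0.700 FPKM in the WT controls and 1.15, 2.51 and 2.10 under DMXAA (1.66, SE 0.65, adjusted p = 0.0722; 0.0324 with the block). In CRE BMDCs, Tlr1 under DMXAA was 1.97, 0.154 and 1.58 FPKM, with library 2 below each control. Like Tlr3, Tlr1 was under 1 FPKM in each BMDC control and met the filter for testing only through libraries with DMXAA. Tlr13 was -0.15 in WT (95% interval -0.86 to 0.57) and 0.04 in CRE (-0.67 to 0.76). Groups did not overlap for 7 of 10 receptors in WT and 4 of 10 in CRE, beside 49.0% and 34.6% of genes. Without both CRE libraries numbered 2, where neutrophil markers were higher, 6 receptors were called in WT BMDCs beside 39.8% of genes and 5 in CRE BMDCs beside 31.4%.

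Between CRE and WT BMDCs no receptor passed the test. Under DMXAA, 0 of 9 receptors were called, and 0 of 12126 genes (0.00%). At an unadjusted p under 0.05 there were 0 receptors and 108 genes, and DESeq2 also called 0 receptors (0.455% of genes at the study's thresholds). Groups did not overlap for 0 of 10 receptors, beside 2.61% of genes. Log2 fold changes of CRE against WT under DMXAA ran from -0.63 for Tlr1 (95% interval -2.02 to 0.75) to 0.21 for Tlr13 (-0.50 to 0.93), with Tlr3 at 0.10 (-0.70 to 0.90), Tlr7 at 0.07 (-0.49 to 0.63) and Tlr2 at -0.07 (-1.43 to 1.28). The controls gave 0 called receptors, 0 at an unadjusted p under 0.05, 0 by DESeq2 (0.736% of genes at the study's thresholds) and 0.00% of genes, with values of -0.34 to 0.19, and groups did not overlap for 1 of 10 receptors, Tlr1, beside 3.97% of genes. The interaction gave 0 called receptors and 0.00% of genes, 0 receptors at an unadjusted p under 0.05 and 0 by DESeq2 (0.446% of genes at the study's thresholds, 0.00827% of genes), and its intervals were wide: -1.14 to 1.37 for Tlr3 and -1.85 to 1.997 for Tlr2. As given above, Tmem173 did not separate the BMDC labels, and the closest pairs of BMDC libraries crossed them. Taken at their labels, CRE BMDCs held a mean of 28.3 FPKM of Tmem173 in the controls and 30.9 with DMXAA. A lower level than in WT did not pass the test, and the 95% interval under DMXAA was -1.05 to 0.19. Loss of the protein could not be checked from mRNA.

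The response of Tlr9 was smaller in BMDCs than in BMDMs. In the test of that difference in WT cells, Tlr9 alone of 9 receptors was called (log2 difference -3.65, SE 0.64, edgeR adjusted p = 0.00538), beside 2.61% of 13368 genes (1.73% lower, 0.883% higher), and it was called in 10 of 10 fits that left out 1 library. Tlr9 levels were alike in the controls (means 1.63 and 1.21 FPKM) and reached 3.08 ± 1.51 FPKM (SD, n = 3) in BMDCs and 31.1 ± 15.6 (SD, n = 2) in BMDMs under DMXAA. The mean of Tlr4 under DMXAA lay below the control in BMDCs and above it in BMDMs, with a difference of -1.36 (SE 0.38, adjusted p = 0.075; 0.00444 with the block). Tlr8 had a difference of -2.64 (SE 0.86, adjusted p = 0.137; 0.000988 with the block) and Tlr2 one of -1.25 (SE 0.87, adjusted p = 0.642; 0.00733 with the block). With the block, 4 receptors were called beside 11% of genes, DESeq2 called 3 (6% at an adjusted p, 8.25% at the study's thresholds), and 2 were called without CRE BMDC libraries 2 (5.30%). The fold of Tlr3 had a difference of -0.11 (95% interval -1.45 to 1.24), although its level under DMXAA was 14.7 ± 4.59 FPKM in BMDCs and 108 ± 52.1 in BMDMs.

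Other genes of the pathway were taken from lists by role, and Myd88 and Cd180 rose in each of the 4 comparisons with DMXAA. Among co-receptors and chaperones, 8 of 9 genes were tested. In WT BMDMs 3 rose and 1 fell (18.4% of all genes rose and 20.7% fell), in CRE BMDMs 3 rose (7.28%), in WT BMDCs 3 rose and 1 fell (17.0% and 15.2%) and in CRE BMDCs 3 rose (14%). Cd180, a TLR4-like receptor of B cells and myeloid cells, went from 55.8 ± 22.1 to 399 ± 209 FPKM in WT BMDMs (log2 fold change 2.73, SE 0.40, edgeR adjusted p = 0.00262) and from 7.31 ± 0.64 to 57.3 ± 6.86 in WT BMDCs (2.95, SE 0.32, adjusted p = 5.52e-05). Ly86, which encodes its partner MD-1, rose by 2.19 in WT BMDMs (adjusted p = 0.000151) and by 1.53 in CRE BMDMs (adjusted p = 0.00174). It also rose by 2.24 in WT BMDCs (adjusted p = 0.0111) and by 2.04 in CRE BMDCs (adjusted p = 0.021). Unc93b1, which escorts the endosomal receptors, rose by 1.32 in WT BMDMs (SE 0.15, adjusted p = 0.000975) and by 0.86 in CRE BMDMs (SE 0.15, adjusted p = 0.0171). In BMDCs Unc93b1 was 0.49 (adjusted p = 0.17) and 0.66 (adjusted p = 0.0809). Ly96, which encodes the TLR4 partner MD-2, rose in WT BMDCs (1.24, adjusted p = 0.0116) and CRE BMDCs (1.03, adjusted p = 0.0327), and was 0.39 (adjusted p = 0.127) in WT BMDMs. Cd14 did not pass in any of the 4, with log2 fold changes of 0.08 to 0.38, and Cnpy3, a folding factor for Toll-like receptors, was the gene that fell in WT BMDMs (-0.51, adjusted p = 0.0306) and WT BMDCs (-0.54, adjusted p = 0.0268).

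Adaptors were tested for 5 of 6 genes, of which 3 rose in WT BMDMs (18.4% of all genes), 3 in CRE BMDMs (7.28%), 2 in WT BMDCs (17.0%) and 1 in CRE BMDCs (14%), and 0 fell. Myd88 went from 21.0 ± 0.23 to 131 ± 26.2 FPKM in WT BMDMs (log2 fold change 2.52, SE 0.16, edgeR adjusted p = 9.85e-05) and from 21.3 ± 2.07 to 47.0 ± 0.24 in CRE BMDMs (1.12, SE 0.16, adjusted p = 0.00757). Myd88 rose by 1.25 under both labels in BMDCs. Ticam1, which encodes TRIF, the adaptor of TLR3, rose by 0.80 in WT BMDMs (adjusted p = 0.00677), by 1.01 in CRE BMDMs (adjusted p = 0.00949) and by 0.64 in WT BMDCs (adjusted p = 0.0295), and was 0.43 in CRE BMDCs (adjusted p = 0.145). Pik3ap1, an adaptor to PI3-kinase, rose by 1.62 in WT BMDMs (adjusted p = 0.0085) and by 1.49 in CRE BMDMs (adjusted p = 0.0353).

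Of 17 kinases and ubiquitin ligases, 7 rose in WT BMDMs (18.4% of all genes), 2 in CRE BMDMs (7.28%), 6 in WT BMDCs (17.0%) and 6 in CRE BMDCs (14%), and 0 fell. Peli1, a ubiquitin ligase of the pathway, went from 5.78 ± 1.13 to 90.3 ± 34.1 FPKM in WT BMDMs (log2 fold change 3.85, SE 0.28, edgeR adjusted p = 0.00016) and from 6.22 ± 0.36 to 15.5 ± 0.22 in CRE BMDMs (1.29, SE 0.26, adjusted p = 0.0264). In BMDCs Peli1 rose by 3.05 in WT (adjusted p = 7.87e-07) and by 2.69 in CRE (adjusted p = 1.78e-06). Ikbke and Tbk1, kinases that activate interferon regulatory factors, rose by 1.92 and 1.63 in WT BMDMs (adjusted p = 0.000525 and 0.00014). In WT BMDCs they rose by 1.76 and 1.56 (adjusted p = 0.0277 and 4.16e-05), and Tbk1 rose by 1.41 in CRE BMDCs (adjusted p = 0.000104). Irak2, a kinase downstream of MyD88, rose by 1.61 in WT BMDMs (adjusted p = 0.000431), by 0.75 in CRE BMDMs (adjusted p = 0.0266), by 1.36 in WT BMDCs (adjusted p = 0.0033) and by 1.10 in CRE BMDCs (adjusted p = 0.013).

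Among inhibitors, Trafd1, a negative regulator of the pathway, went from 12.7 ± 0.46 to 267 ± 42.8 FPKM in WT BMDMs (log2 fold change 4.29, SE 0.15, edgeR adjusted p = 1.05e-05) and rose by 2.87 to 3.11 in the other 3 comparisons with DMXAA. Tnfaip3, which encodes the deubiquitinase A20, rose by 3.70 in WT BMDCs (adjusted p = 7.00e-05) and by 1.46 in WT BMDMs (adjusted p = 0.000264). Il1rl1, which encodes the receptor ST2, fell by 2.41 in WT BMDCs (adjusted p = 0.00302) and by 2.01 in CRE BMDCs (adjusted p = 0.00942), and was not tested in BMDMs. In all, 4 of 7 inhibitors tested rose in WT BMDMs (18.4% of all genes) and 1 of 7 in CRE BMDMs (7.28%). In BMDCs of either label 4 of 9 rose and 2 of 9 fell, beside 17.0% and 15.2% of all genes in WT and 14% and 11.4% in CRE. Of 5 endosomal proteases, which cut the endosomal receptors, Ctsb was the one called, rising by 0.36 in WT BMDMs (adjusted p = 0.0365), by 0.92 in WT BMDCs (adjusted p = 0.00672) and by 0.66 in CRE BMDCs (adjusted p = 0.0409), while 0 were called in CRE BMDMs.

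In DMXAA-treated BMDMs, the libraries labelled CRE had lower levels than WT for 1 of 8 co-receptors and chaperones, 1 of 5 adaptors, 6 of 17 kinases and ubiquitin ligases, 4 of 7 inhibitors and 0 of 5 proteases, and higher levels for 0 in each list, beside 9.99% of all genes lower and 9.26% higher. Median log2 fold changes were -0.09, 0.00, -0.09, -0.94 and 0.11 in that order, beside 0.01 over all genes. Peli1 was 15.5 ± 0.22 FPKM in CRE and 90.3 ± 34.1 in WT (log2 fold change -2.49, SE 0.27, edgeR adjusted p = 0.00234), Ikbke 5.47 ± 0.48 and 21.0 ± 5.49 (-1.89, SE 0.19, adjusted p = 0.002), and Myd88 47.0 ± 0.24 and 131 ± 26.2 (-1.43, SE 0.16, adjusted p = 0.00256). Tnip1 (-1.29, adjusted p = 0.0115), Trafd1 (-1.03, adjusted p = 0.0043), Ly86 (-1.01, adjusted p = 0.00687) and Cyld (-0.97, adjusted p = 0.0233) were also lower. Unc93b1 (-0.27, adjusted p = 0.254) and Ticam1 (0.32, adjusted p = 0.188) did not pass. In BMDCs, 0 genes of these lists differed between labels under DMXAA. Between control WT BMDCs and BMDMs, Cd14 was 58.9 ± 12.2 and 431 ± 240 FPKM (-2.93, SE 0.36, adjusted p = 2.00e-05) and Sigirr, an inhibitory receptor, 5.45 ± 1.06 and 0.451 ± 0.05 (3.53, SE 0.44, adjusted p = 2.43e-05).

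**Figure D5:**
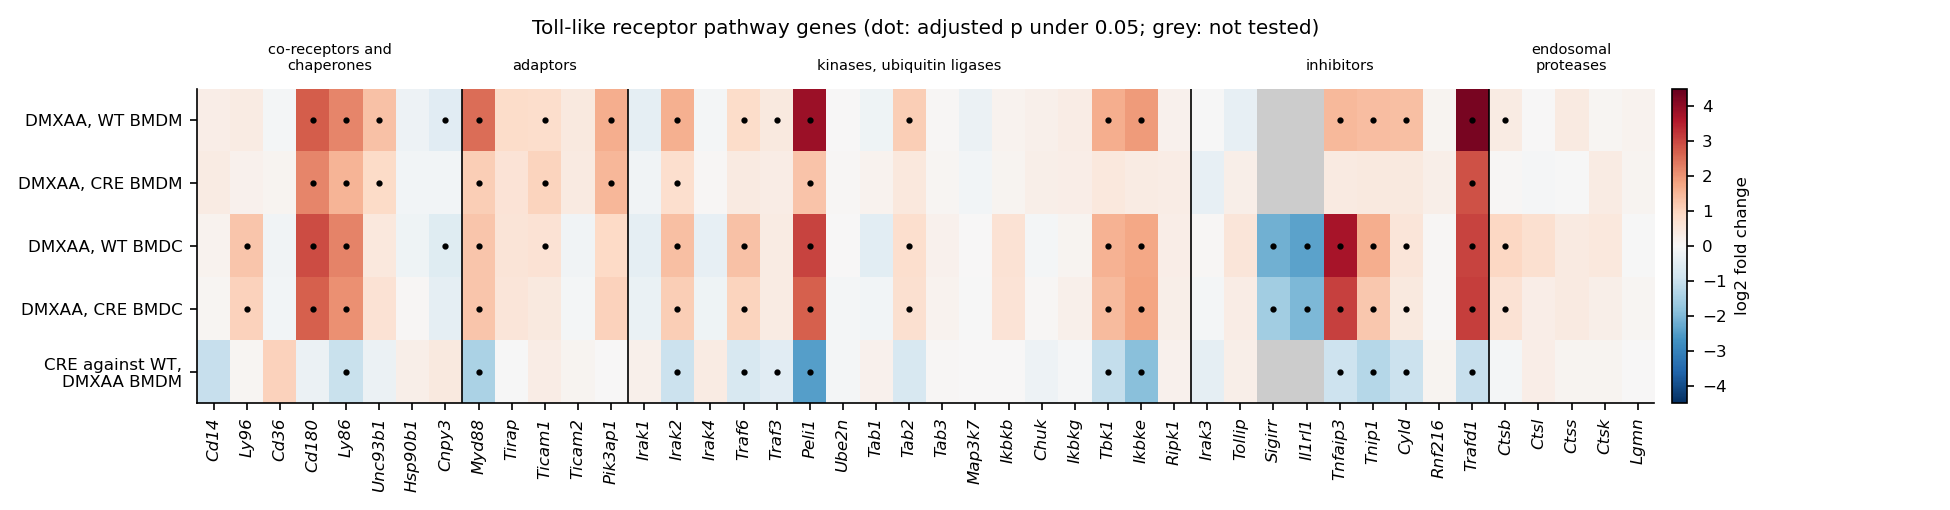
Log2 fold change (colour, edgeR) of pathway genes by role in the 4 comparisons of DMXAA with control and in CRE against WT BMDMs under DMXAA. Dots mark an adjusted p under 0.05 and grey cells were not tested; Trafd1 reaches 4.29 and Peli1 3.85 in WT BMDMs.

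The receptors also differed in which genes followed them over the 20 libraries, as Pearson correlations of log2(FPKM + 1) among 13368 genes, given as a description because the points share cultures, treatment and depth. Tlr3 was most like Morc3 (0.99) and Azi2 (0.99), Tlr7 most like Sgcb (0.98) and Cd180 (0.98), and Tlr13 most like Rufy1 (0.98) and Msr1 (0.98), a scavenger receptor of macrophages. Tlr6 was most like Ptpn6 (0.98) and Tbc1d9 (0.97), Tlr9 like Sass6 (0.97) and Golga3 (0.96), and Tlr1 like Frmd4b (0.97) and Inppl1 (0.96). Tlr8 was most like AC166110.3 (0.96) and Sp3 (0.95), and Tlr2 like Gm10134 (0.92) and Ccnl1 (0.92). Within the family, Tlr6 and Tlr7 had the highest correlation (0.97), Tlr3 and Tlr7 had 0.92, and Tlr1 and Tlr4 the lowest (-0.55).

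In the BMDM libraries numbered 3, the macrophage marker sum was 42.2 to 70.6 CPM, against 9585 to 21352 in the other 8, and the nucleic acid receptors other than Tlr3 were under 1 FPKM. Tlr9 and Tlr5 had 0 counts in each of the 4, Tlr8 and Tlr13 at most 1 count and Tlr7 at most 78. A count of 0 allows up to 3 counts by a one-sided 95% limit, which covers counting error only. Tlr2 was 32.7 FPKM in the WT control and 30.9 in the WT library with DMXAA, and 23.0 and 37.2 in the CRE libraries. With these libraries in the fit, the spread rose (biological coefficient of variation 78.8% against 24.5%), and 0 receptors were called in any BMDM comparison, beside 0.0864% of genes for DMXAA in WT BMDMs. Tlr11 and Tlr12, the remaining receptors of the family in mice, were at most 0.918 and 0.684 FPKM in the 20 libraries used.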

How the data were processed

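The authors deposited 1 table with raw counts per gene and FPKM per gene for the 24 libraries, and per the labels the reads went through CASAVA 1.8, fastp, HISAT2 2.0.5 and featureCounts 1.5.0-p3 on GRCm38 (mm10). The order and settings of these tools, and the strand setting, are not given in the sources used here. The authors' FPKM divide by length, which lets genes be set side by side. Between libraries, FPKM of the same gene did not scale like CPM. A fold or an order of libraries can therefore differ between these measures. Columns of group means, fold changes and p-values from the authors' DESeq2 1.20.0 comparisons were not used. All 48 per-library columns were matched to a library through the labels.

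Receptors, pathway lists and marker lists were chosen with earlier results of these data known. Tested were genes reaching FPKM 1 in 3 or more BMDC or 2 or more BMDM libraries, on the counts with the quasi-likelihood test of edgeR 4.0.16 (R 4.3.3, TMM scaling, two-sided, Benjamini-Hochberg over all genes tested, called at an adjusted p under 0.05). The 4 groups of BMDCs had 1 model, as had those of BMDMs, and BMDCs were set against BMDMs in a model of 20 libraries with the filter at 2 or more. BMDM libraries numbered 3 were kept out of the main fits and included as an alternative. Other alternatives were a filter on total count, median-of-ratios scaling, DESeq2 1.42.0, a replicate block, fits of the compared groups and leaving out libraries. Dropping the WT BMDM or CRE BMDC libraries numbered 2 was added after seeing the data. On simulated counts, 4-fold changes in 200 genes were recovered for 79% (DMXAA in WT BMDCs, 12126 genes) and 78% (DMXAA in WT BMDMs, 11569 genes), with 10 and 8 false calls. The data had far more genes called, 3904 and 4531, so these rates need not hold for the fits reported.

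Named are the 10 receptors and Cd14, Ly96, Unc93b1, Myd88 and Ticam1, per list and comparison up to 3 called genes with the largest change and groups that do not overlap, and the 2 genes most correlated with each receptor of mean FPKM at least 1. Same-numbered control and DMXAA libraries correlated in their deviations at 0.39 or more in each BMDC pair. In the fits with a replicate block, numbers were therefore taken as pairing them within a label. The main fits left this pairing out. In BMDMs numbers 1 and 2 give 2 pairs per label, too few for that reading. Protein sequences were not used here. Depth was 15657347 to 18912887 counts per library. The reads carry no molecular identifiers, so the exact Poisson intervals on counts, used for the BMDM libraries numbered 3, cover counting error only. Intervals of log2 fold changes come from the edgeR fits and also include the spread between libraries. The genes whose pattern was most like that of Tlr4 are not reported here.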

Additional observations from a re-analysis of the deposited data

Results flagged for a closer look

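Tlr2 responded to DMXAA differently in CRE and WT BMDMs, by a log2 difference of -2.53 in the interaction test of edgeR (adjusted p = 0.0298), with n = 2 per group. This difference was between -3.13 and -2.15 without 1 library, and, as given above, the call did not hold in each of those fits. With the BMDM libraries numbered 3 included, that test called 0 receptors. Tlr9 responded differently in WT BMDCs and BMDMs, by -3.65 (adjusted p = 0.00538). By FPKM, Tlr4 lay on opposite sides of its control in WT cells. The mean under DMXAA was 1.81 times the control in BMDMs, with both treated libraries above both controls. In BMDCs it was 0.652 times the control, with each treated library below each control. The separation in BMDMs depended on the scale. As CPM, Tlr4 there was 47.1 and 41.0 in the controls and 62.5 and 39.8 under DMXAA, with treated library 2 below both controls. The edgeR test of the difference in Tlr4 response between WT BMDCs and BMDMs gave -1.36 with an adjusted p of 0.075.

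The BMDM libraries numbered 3, which no comparison above uses in its main fit, held signal that was higher with DMXAA than without for Tlr3 and Tlr1 under both labels, for Tlr7 in WT and for Tlr2 in CRE, judged by exact Poisson intervals on counts, which cover counting error only. Tlr3 was 6.44 FPKM with DMXAA and 1.34 without in the WT libraries (815 and 166 counts), and 3.41 and 0.662 in the CRE libraries (435 and 73 counts). Tlr1 was 1.43 and 0.843 FPKM in WT (116 and 67 counts) and 0.293 and 0.0847 in CRE (24 and 6 counts). Tlr7 was 0.787 and 0.423 FPKM in WT (78 and 41 counts), and its intervals overlapped in CRE. Tlr2 was 37.2 and 23.0 FPKM in CRE (2740 and 1469 counts), and its intervals overlapped in WT. There is 1 such library in each group, so the difference has no replicate check. Groups of 2 or 3 libraries were too small to look for a single outlying library.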

How the results depend on the processing

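Of 27 receptor values called, 0 reversed in sign under any alternative run; of their 345 alternative values, 286 stayed past the threshold and 59 did not. Of the other values, 100 were called under an alternative alone in the same direction and 1 in the other: Tlr7 in CRE against WT control BMDMs, at -0.23 without both WT libraries numbered 2, against 0.04. Values called in neither changed sign in 95 of 1030 cases. The total count filter and median-of-ratios scaling left each count of called receptors within 1.5 times its value, but the filter lost Tlr4 in WT BMDMs under DMXAA, and both lost Tlr13 in CRE against WT BMDMs under DMXAA.

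DMXAA in WT BMDCs gave 3 receptors called, against 6 by DESeq2, 8 with the replicate block, 6 in a fit of the compared groups and 6 without the CRE libraries numbered 2. In CRE BMDCs it gave 3, against 5 by DESeq2 at an adjusted p, 5 at the study's thresholds, 5 with the replicate block and 5 without CRE libraries 2. In CRE BMDMs it gave 3, against 7 with the replicate block, 8 in the compared groups (6389 genes called, against 1157) and 8 without WT libraries 2; CRE against WT under DMXAA in BMDMs gave 4, against 8 without WT libraries 2. CRE against WT in control BMDMs gave 0, against 1 by DESeq2 under both thresholds and 2 without WT libraries 2. The interaction in BMDMs gave 1, against 3 by DESeq2 under both thresholds, 7 with the replicate block and 8 without WT libraries 2, and the cell type interaction 1, against 3 by DESeq2 under both, 4 with the replicate block and 2 without CRE libraries 2. With BMDM libraries numbered 3 included, each comparison with BMDMs gave 0 receptors. The fit of the compared groups called 1687 genes, against 4531, for DMXAA in WT BMDMs and 1853, against 3084, in CRE BMDCs. The block changed no other count of called receptors by over 1.5 times. In BMDMs the block rests on 2 pairs per label, which do not show that numbers pair libraries there.

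Leaving out 1 library gave 2 to 4 receptors called for DMXAA in WT BMDCs, beside 2957 to 3367 of 12126 genes, against 3904 in the main fit. In CRE BMDCs it gave 3 to 6 receptors, beside 2170 to 3511 genes, against 3084. It gave 0 receptors and 0 genes for CRE against WT in BMDCs, under DMXAA and in the controls, and for their interaction. Leaving out 1 BMDM library left 1 in its group, so counts of receptors called in those fits are not listed in this paragraph. Those fits are part of the 345 alternative values above, and some are given in the paragraphs on BMDMs. Where an arm was left with 1 library, that library was assumed to vary like the others. The cause of these changes was not tested. Levels under 1 FPKM, such as Tlr1 and Tlr3 in control BMDCs and Tlr5, rest on few counts.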
